A study of Mus musculus with 4 samples.

Results

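CTCF binding was mapped by ChIP-seq in mouse hippocampus, and the sites described here are those whose summit lay in a 3' untranslated region (3'UTR), the part of a messenger RNA between the stop codon and the end of the transcript. A peak of the deposited between-replicate list was a member when its summit, the position of highest signal, fell in a UTR segment downstream of the coding sequence of a GENCODE M21 basic transcript (mm10), in no coding sequence and over 1 kb from any transcription start site (TSS). 1502 of the 88071 autosomal peaks met this rule, or 1.71% (95% exact interval 1.62 to 1.79). Within the list the choice used position alone, and the motif had no part in it. The list itself keeps peaks whose ranks agree between the 2 replicates (irreproducible discovery rate, IDR, 0.05), so agreement between replicates helped decide which sites could be members. The hippocampal tissue ("layer of hippocampus") came from male B6CASTF1/J mice, the F1 cross of C57BL/6J and CAST/EiJ, adult at 2 months. There were 2 biological replicates, each a pool of 7 tissue biosamples sequenced as 2 technical libraries. The labels name 1 donor entry for both, so it is not stated whether the pools came from separate animals, and the spread between replicates may be technical. No treated or mutant group existed, the files hold no read depth, and the values cover all cell types of the tissue together, so fewer cells with a bound site and weaker binding per cell cannot be told apart. Peaks carry no expression values, so the labelled tissue could not be checked against marker transcripts.

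CTCF is a zinc-finger protein that binds a long, directional DNA motif and, together with the cohesin ring, holds the bases of chromatin loops. Loops form most readily between sites whose motifs point toward each other, so the strand of a motif matters as well as its presence. 3'UTRs are known mainly as RNA: they carry microRNA sites, protein-binding elements and polyadenylation signals, and in neurons they help to direct messages into dendrites. The same sequence is also DNA within a transcribed unit, where CTCF can bind.

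Sites with an exact match to the CTCF core motif, a pattern of 12 positions of which 4 allow a pair of bases, show what the protein meets in this sequence. The first 5 lines are the 5 strongest such sites, and the other 4 are exact matches in genes of the neuronal lists described further on. In each line below, the 12 bases of the motif are in capitals, with 3 bases before and 4 after in lower case, read 5' to 3' on the strand of the motif. The sequences come from the RefSeq GRCm38.p6 assembly, which is a C57BL/6J reference, so the CAST/EiJ copy was not seen.
Ptp4a3, chr15:73757351-73757362, minus strand: tggCCACCAGAGGGCgcca
Ppp1r1a, chr15:103530547-103530558, plus strand: tgtCCAGCAGATGGCgctt
Elovl3, chr19:46135447-46135458, plus strand: agaCCACCAGGTGGCgtcg
Rpl22, chr4:152333112-152333123, plus strand: cctCCAGCAGAGGGCgagg
Slc4a3, chr1:75559676-75559687, minus strand: ccaCCACCAGAGGGCtaca
Grm2, chr9:106643361-106643372, minus strand: tcaCCAGTAGAGGGCgcca
Syt7, chr19:10449914-10449925, plus strand: ctaCCACCAGGTGGCacca
Nos1, chr5:117956207-117956218, minus strand: caaCCAGCAGAGGGCagta
Fibcd1, chr2:31815539-31815550, plus strand: tagCCAGCAGGGGGCagtc
Next come matches with 1 mismatch in genes of the neuronal lists, shown because most motif-bearing members were of this type.
Ddn, chr15:98804270-98804281, minus strand: tagCCACTACGGGGCgcgc
Kif5a, chr10:127229083-127229094, minus strand: ctaCCACTAGGGGTCactg
Fosb, chr7:19303961-19303972, minus strand: tggGCAGCAGGGGGCgctg
Rbfox3, chr11:118491029-118491040, minus strand: cgtCCCCCAGGGGGCgccg

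A CTCF core motif with at most 1 mismatch stood within 50 bp of the summit in 716 of the 1502 members, or 47.7% (95% exact interval 45.1 to 50.2). The same window moved 1 kb toward the transcript end held one in 1.61% of 1487 members with a single gene strand (1.04 to 2.39), against 47.7% at the summit of these members. The median member lay 952 bases from the transcript end, so for many members the moved window lay past the annotated 3'UTR. The match was exact in 198 members (13.2%), had 1 mismatch in 518, 2 mismatches in 408, 3 in 261 and 4 in 107. Where a motif was found, its centre lay a median of 6.5 bp from the summit, and 89.1% lay within 20 bp. Among the 518 members whose best match had 1 mismatch, that mismatch fell at position 5 of the motif in 38.6% and at position 12 in 14.3%, while positions 2, 7 and 8 each held under 1 in 100 of them, at 0.193%, 0.965% and 0.579%. All 16 forms that the motif allows occurred among 194 of the exact matches. The most frequent were the following, in 30 and 25 members.
First form: CCAGCAGGGGGC
Second form: CCACCAGGGGGC

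Motif share rose with signal. Splitting the whole autosomal list into 5 equal signal classes, the share of 3'UTR members with a motif was 22.3% in the weakest class (17.5 to 27.7, n = 274), then 33.3%, 39.5% and 54.4%, and 73.3% in the strongest (68.8 to 77.4, n = 419). Members with a motif had a median signal of 483 (95% interval of the median 410.0 to 522) and members without one 126 (113.5 to 135.1). Some of the strongest members had no match even at 2 mismatches. The 3 strongest of these were in Rtn2, a reticulon of the endoplasmic reticulum, with a signal of 916, in Tob2, an antiproliferative protein that recruits a deadenylase, with 871, and in Rdh13, a retinol dehydrogenase, with 864. Rtn2 was the strongest of all members and ranked 57 in the autosomal list. All 3 had a summit in the list of each replicate alone, and none had one in a separate list made from pooled reads.

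The motif was commoner at 3'UTR summits than at coding and promoter summits, and rarer than at intronic and intergenic ones. At 47.7%, the share was 11.1 percentage points above that of summits in coding exons (36.5%; 95% Newcombe interval of the difference 7.65 to 14.6) and 20.4 points above promoters, meaning summits within 1 kb of a TSS (27.3%; 17.7 to 23.0). Against introns (53.6%) the difference was -5.97 points (-8.53 to -3.39), and against intergenic summits (55.3%) it was -7.66 points (-10.2 to -5.08). The gap was not even over signal: in the weakest of the 5 signal classes the share was 22.3% in 3'UTRs, 38.6% in introns and 39.01% in intergenic sequence, and in the strongest it was 73.3%, 74.5% and 72.1%. For the exact motif the order against introns turned. Exact matches were found in 13.2% of 3'UTR members, 9.45% of intronic summits (difference 3.73 points, 2.09 to 5.56), 8.57% of coding summits and 12.4% of intergenic summits, where the interval of the difference included 0 (-0.893 to 2.61).

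**Figure D1:**
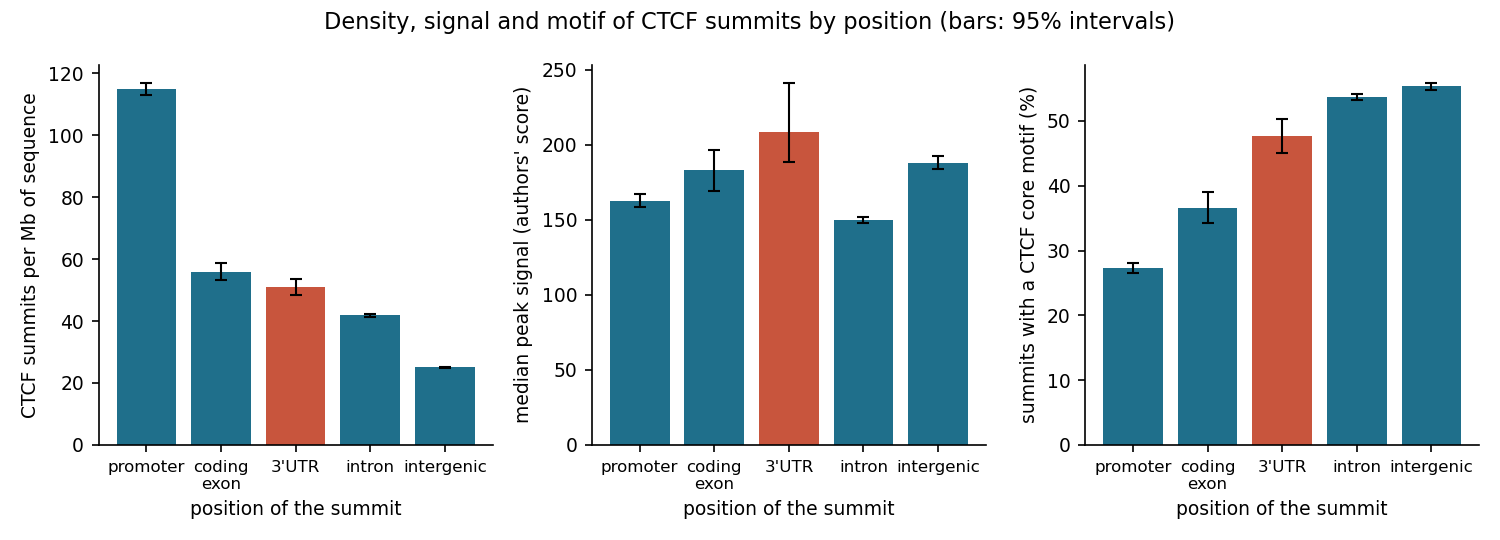
Density of CTCF summits per Mb of sequence (left), median peak signal in the authors' score (middle) and percent of summits with a CTCF core motif (right), by position of the summit, with 95% intervals. The 3'UTR bars stand at 51.0 summits per Mb, a median signal of 209 and a motif share of 47.7%, between coding exons and introns in density and motif share and highest of the 5 in median signal.

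Members were dense for their sequence. The 29.5 Mb of 3'UTR that the rule could count held 51.0 summits per Mb (95% exact Poisson interval 48.4 to 53.6). Coding exons held 55.9 per Mb (53.2 to 58.7), introns 41.9 (41.5 to 42.3), intergenic sequence 25.03 (24.75 to 25.31) and promoters 114.9 (112.9 to 116.9). The 3'UTR interval did not overlap those of introns, intergenic sequence or promoters. It overlapped that of coding exons, but each of these estimates lay outside the other's interval, and their difference was not tested. By chromosome, the density ran from 39.9 per Mb on chromosome 10 to 64.7 on chromosome 15, with wide intervals (30.6 to 51.1 and 50.4 to 81.7).

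The signal of the members, a score of the authors' peak caller without a stated scale, ran from 13.2 to 916, with a median of 209 (188.6 to 241) and quartiles at 89.0 and 613. The median of all autosomal peaks was 164.8. 832 members, or 55.4% (52.8 to 57.9), stood above it. That share was 8.36 points higher than among intronic summits (47.0%; 5.79 to 10.9) and 5.82 points higher than among promoter summits (49.6%; 3.15 to 8.47). It was not distinguishable from coding summits (52.9%; interval of the difference -0.995 to 6.01) or intergenic summits (53.6%; -0.758 to 4.39). The strongest of the 5 signal classes held 27.9% of the members, where an even spread would put 20%. With each replicate's own signal in place of the pooled one, 56.3% stood above the replicate 1 median and 55.8% above the replicate 2 median.

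The 10 strongest members lay in genes of mixed function. Rtn2 had a signal of 449 in replicate 1 and 471 in replicate 2. Gna15, a G protein alpha subunit, had 437 and 475. Ptges2, a prostaglandin E synthase, had 456 and 443. These values differed little between replicates, and so did those of the remaining 7, in H6pd, Tkt, Ptp4a3, Mpped1, Slc16a5, Trp53i13 and Tob2, which lay between 423 and 435 in replicate 1 and between 442 and 458 in replicate 2. H6pd makes NADPH inside the endoplasmic reticulum, Tkt is the transketolase of the pentose phosphate pathway and Ptp4a3 is a protein tyrosine phosphatase. A core motif with at most 1 mismatch stood at 5 of the 10. In the separate list made from pooled reads, only H6pd and Trp53i13 of the 10 had a summit within 100 bp. Ptges2 had none in the list of replicate 2 alone, and Slc16a5 none in that of replicate 1.

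Replicates were close for most members, which is a description only, since the list was thresholded on agreement between these same replicates. On the log2 scale, after the median difference of the list was removed, 96.1% of members had replicate signals within 1.5-fold of each other. The SD of the log2 ratio was 0.53 over all members, falling from 1.15 in the weakest signal class to 0.08 in the strongest. The wide ratios were at peaks that overlap. In the list, 147 members overlapped another peak, and 74 were the weaker summit of such an overlapping set. Over the other 1428 members the SD was 0.21 and no ratio passed 2-fold, while all 35 members past 2-fold were among the 74. Of the 74, 1 had a core motif (1.35%, 0.0342 to 7.30), against 715 of the 1428 (50.1%). For Mtf1, a metal-responsive transcription factor, the weaker summit (pooled signal 29.1) carried a value of 433 in replicate 2, the same as that of the stronger summit in the same interval (pooled signal 863), and 25.4 in replicate 1. The ratios farthest from 0 were of this kind: 371 in replicate 1 and 12.98 in replicate 2 at the summit shared by Cuedc2 and Fbxl15, and 8.59 and 313 at A530016L24Rik. A replicate value that is also carried by an overlapping peak was found for 67 members.

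**Figure D2:**
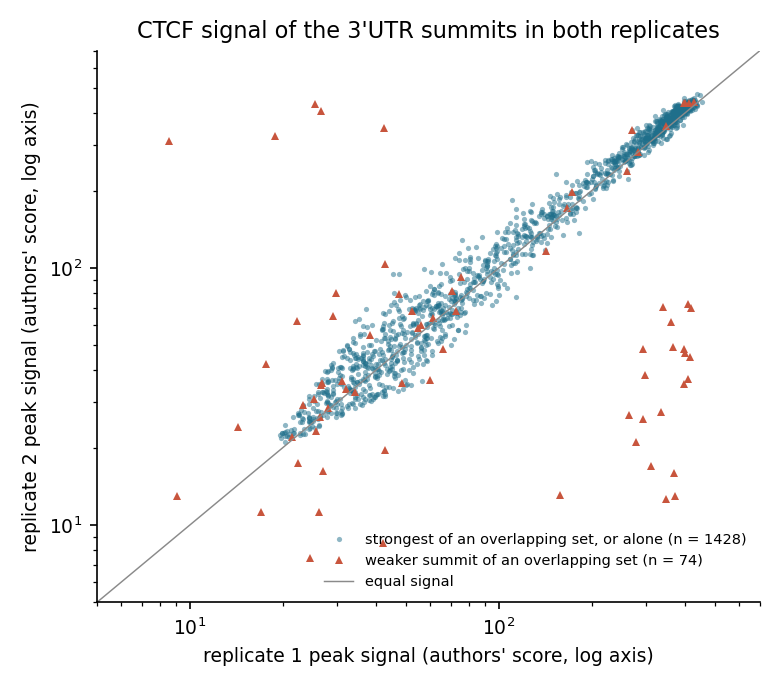
Peak signal of each 3'UTR member in replicate 1 (x axis) and replicate 2 (y axis), both log axes in the authors' score. The 1428 members that stand alone or are the strongest of an overlapping set follow the line of equal signal, and the points far from it are among the 74 weaker summits of overlapping sets.

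The thresholded list of replicate 1 alone held a summit within 100 bp of 82.2% of members, that of replicate 2 of 82.1%, and both of 76.5% (74.3 to 78.6). 183 members (12.2%) had none in either. The share in both lists was 9.85% in the weakest signal class, 97.4% in the middle one and 99.0% in the strongest. The thresholded list made from pooled reads differed at the top: among the 50 strongest members, 98% had a summit in each replicate's list, but 54% (39.3 to 68.2) had one in the pooled-read list.

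Summits followed the sequence along the UTR. With each 3'UTR cut into 10 equal bins from stop codon to transcript end, the bins held between 8.85% and 11.7% of members, and between 9.66% and 10.1% of the countable bases, a share inside the interval of every bin. Before the midpoint lay 50% of members (47.4 to 52.6), with 49.7% of the bases. The median member lay 962 bases from the stop codon and 952 bases from the transcript end. 114 members (7.59%) were within 100 bases of the stop codon and 101 (6.72%) within 100 bases of the end, and 1 summit fell on the 3 bases of a stop codon itself. At fixed distances the density was higher near both ends of the UTR than far from them. It was 58.4 summits per Mb in the first 500 bases after the stop codon (53.1 to 64.1) and 40.1 beyond 5 kb from it (30.8 to 51.3). Measured from the transcript end, it was 58.7 per Mb in the last 500 bases (53.4 to 64.3) and 33.8 beyond 5 kb (25.3 to 44.2). Bases beyond 5 kb from an end exist only in long UTRs, and density was lower in genes with long UTRs. Position and UTR length therefore cannot be told apart in these densities. Their bases came from 1 transcript per gene, while summits in the 3'UTR of any transcript were counted.

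The far end of the scale held few sites. A summit in Aak1, a kinase that regulates clathrin-mediated endocytosis, lay 15659 bases from the stop codon and 269 from the end, with an exact motif and signals of 379.8 and 436 in the replicates. Vmn2r76, a vomeronasal receptor, had one at 13650 bases with signals of 111.2 and 113.5, also with an exact motif. The farthest, at 42845 bases, was in D10Wsu102e, whose annotated 3'UTR of 122586 bases was the longest among the members. Most members (95.3%) lay in a 3'UTR made of a single exon segment, and 7 lay in a segment upstream of the last. At the edge of the rule, the members nearest a TSS were in Fam89b and Sssca1 at 1001 bp, in 9030612E09Rik at 1007 bp and in Olfr455 at 1014 bp, with signals of 51.5, 86.2 and 106.6. Just outside it, 3'UTR summits in Hes7 at 993 bp, Saa3 at 986 bp and Bcl2 at 970 bp had signals of 103.3, 782 and 541.

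The strand of the motif changed along the UTR. Of the 698 members with a motif on 1 strand and genes on 1 strand, 323 had it on the strand of the gene and 375 on the opposite strand, so 46.3% were sense (42.5 to 50.05), an interval that includes 50%. Motifs at coding summits were 42.4% sense (38.3 to 46.5; interval of 3'UTR minus coding -1.58 to 9.37), and those at intronic summits 52.4% (51.7 to 53.1; 3'UTR minus intron -6.15 points, -9.88 to -2.38). Before the midpoint of the UTR, 184 of 342 motifs were sense (53.8%, 48.4 to 59.2). Past it, 139 of 356 were (39.0%, 33.9 to 44.3), a difference of -14.8 points (-21.9 to -7.36). This split, like the next ones, was chosen after the data were seen.

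With the UTR cut into 5 equal parts, the sense share was 57.4% in the part next to the stop codon (66 of 115), then 50.3%, 50.4% and 46.8%, and 29.3% in the part next to the transcript end (43 of 147; 22.0 to 37.3). The last part differed from the other 4 together (50.8%, 280 of 551) by -21.6 points (-29.5 to -12.7). Among members found in both replicate lists the difference was -21.8 points (-30.3 to -12.3), and among exact motifs -21.8 points (-36.4 to -2.45, with 8 of 30 sense in the last part). Repeat content moved with it. The summit was on sequence soft-masked as repeat in 8.79% of members in the first part and in 33.4% (28.2 to 39.0) in the last. In the last part 14 of 68 soft-masked members had a sense motif (20.6%, 11.7 to 32.1) and 29 of 79 others did (36.7%, 26.1 to 48.3). So the difference between the last part and the rest was -32.7 points (-44.9 to -18.2) for soft-masked members and -13.5 points (-24.3 to -1.57) for the others.

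**Figure D3:**
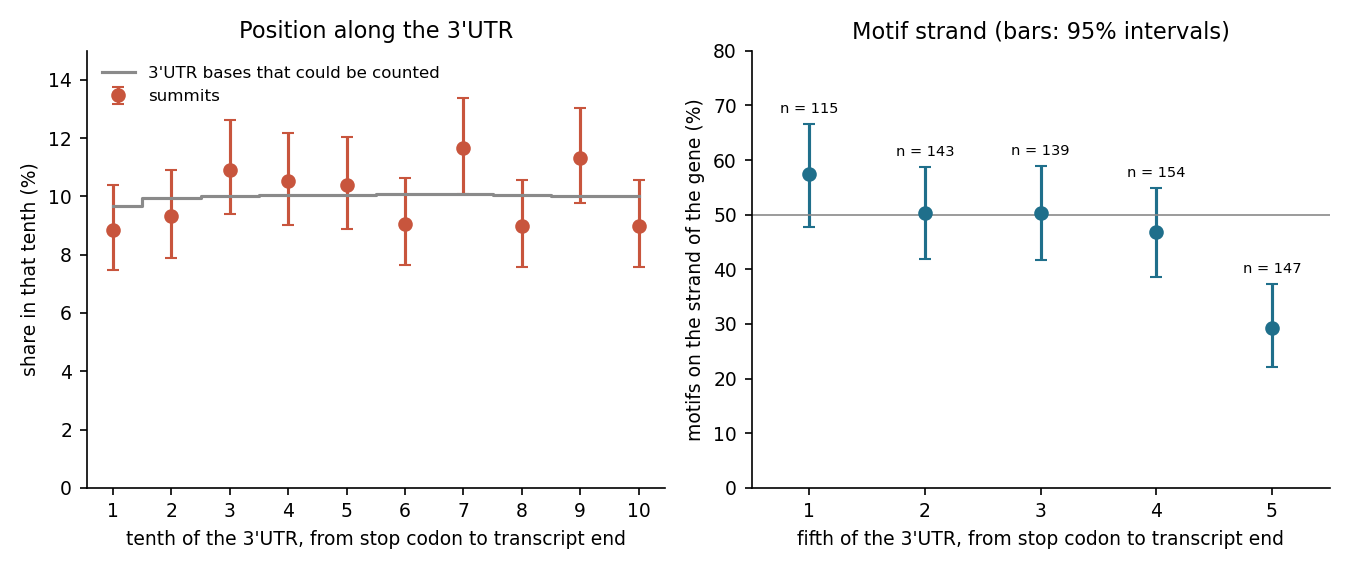
Left, percent of the 1502 members in each of 10 equal bins of the 3'UTR (points, 95% exact intervals) beside the percent of countable bases (grey line). Right, percent of motifs on the strand of the gene in 5 equal parts of the 3'UTR, with a grey line at 50%: the share is 57.4% next to the stop codon and 29.3% next to the transcript end.

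Soft-masked members were set apart in other ways. They made up 266 members, or 17.7% (15.8 to 19.7), close to the 19.2% of countable 3'UTR bases that are soft-masked, whereas 37.0% of intronic summits were on such sequence against 29.3% of intronic bases. The 3'UTR share minus the intronic one was -19.2 points (-21.2 to -17.2). Soft-masked members more often had a core motif, 65.4% (59.4 to 71.1) against 43.9% (41.1 to 46.7) of the others, but their median signal was lower, 123.7 (108.9 to 138.3) against 259 (227 to 299).

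A 3'UTR summit was found in 1391 of 19450 autosomal genes with countable 3'UTR, a background of 7.15% (6.79 to 7.52), and 1389 of them were protein-coding. The share grew with UTR length while the density fell. Of genes with up to 500 countable bases, 1.496% had a summit (1.21 to 1.83), against 24.2% of genes with over 5000 (21.4 to 27.2). The density went from 67.4 summits per Mb (54.5 to 82.4) to 41.9 (37.0 to 47.4) across the same classes. Genes with a summit had a median of 2367 countable bases, and genes without one 913.

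**Figure D4:**
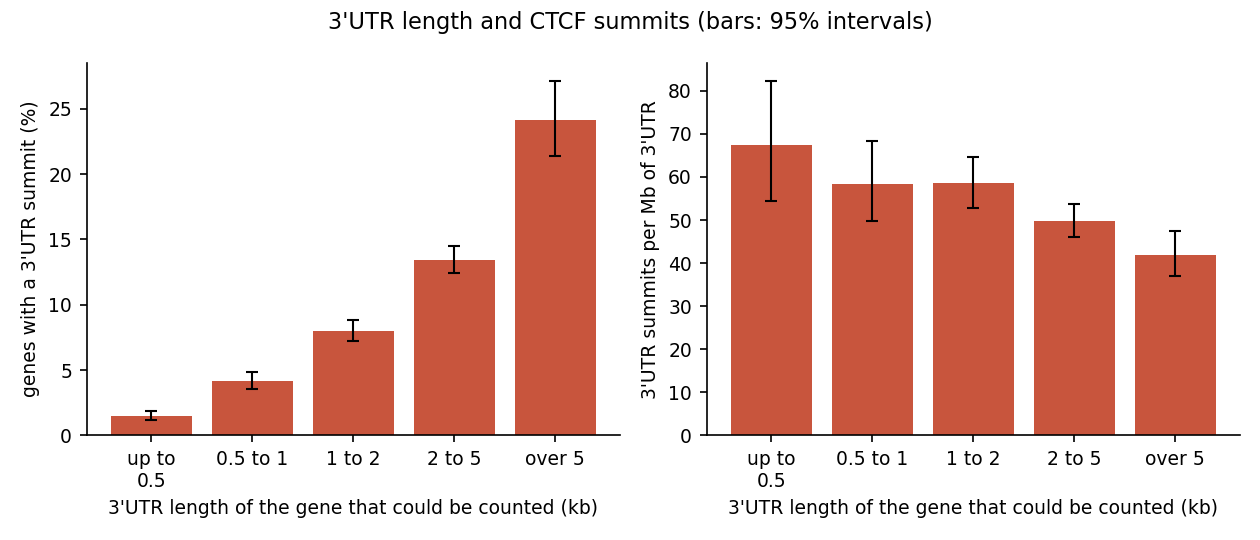
Percent of genes with a 3'UTR summit (left) and 3'UTR summits per Mb (right) by the countable 3'UTR length of the gene, with 95% intervals. The percent of genes climbs from 1.496% to 24.2% with length, and the density goes from 67.4 to 41.9 per Mb.

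Most of these genes (1256) had 1 summit, 121 had 2, 12 had 3 and 2 had 4. Counting overlapping peaks once left 1290 genes with 1, 78 with 2, 5 with 3 and 1 with 4. That last gene was Cbl, which encodes an E3 ubiquitin ligase of receptor signalling. Its summits had pooled signals of 563, 188.6, 59.8 and 41.4, with replicate values of 259 and 303 at the strongest and 19.7 and 21.7 at the weakest. The summit at 59.8 was found in the list of replicate 1 alone, but not in that of replicate 2 or of pooled reads. The one at 41.4 was in none of these lists. All 4 of its best matches, each with at most 2 mismatches, were on the strand opposite to the gene. The strongest pair is shown, with 1 mismatch each.
Cbl summit nearer the stop codon, chr9:44147490-44147501, plus strand: ccaCCAGGAGGTGGCagga
Cbl summit nearer the end, chr9:44144545-44144556, plus strand: cccCCACTGGAGGGCgtat

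Mgat5, a glycosyltransferase that branches N-glycans, had 4 summits of which 3 remained when overlapping peaks were counted once. The 2 strong ones were on opposite strands and pointed toward each other, since the one nearer the stop codon was sense and the other antisense in a plus-strand gene. Their signals were 313 and 330 in the replicates at the first and 307 and 319 at the second.
Mgat5 summit nearer the stop codon, chr1:127485010-127485021, plus strand: caaCCGGCAGGGGGCgcca
Mgat5 summit nearer the end, chr1:127487353-127487364, minus strand: tgtCCAGCAGGGGGCagca
The 12 genes with 3 summits tie, and the 3 named here are those with the strongest summit. Epb41l5, a membrane-cytoskeleton adaptor, had 3 with overlapping peaks counted once, while Mtf1 and the olfactory receptor gene Olfr1410 had 2. Gfod1, Gfod2 and Zbtb20, named after their values were seen, also had 3 by that count. The strong Olfr1410 summits also carried motifs on opposite strands, antisense at 2410 bases from the stop codon and sense at 5924.

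Genes with a 3'UTR summit more often had a promoter summit as well. A summit within 1 kb of a TSS of the gene was found in 675 of 1391 genes with a 3'UTR summit, or 48.5% (45.9 to 51.2), against a background of 39.7% over all 19450 genes and 39.1% of genes without a 3'UTR summit (difference 9.45 points, 6.74 to 12.2). UTR length moved with this result. Within length classes the difference was 3.58, -2.64, 4.44, 5.30 and 6.92 points from the shortest UTRs to the longest, and its interval left out 0 in the class from 2 to 5 kb (0.926 to 9.64). Where both ends of a gene had a motif on a single strand (78 genes), the motifs pointed toward each other in 30 genes (38.5%, 27.7 to 50.2), away from each other in 14 (17.9%, 10.2 to 28.3) and the same way in 34. Genes that share a 3'UTR summit were each counted in the 1391, among them 22 clustered protocadherin genes with 1 common summit. How many of the 78 genes share a summit was not counted. The intervals treat genes as separate, so they can be too narrow.

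The gene next downstream also differed. The nearest protein-coding gene past the transcript end was on the opposite strand, so that the genes met tail to tail, in 52.5% of 1389 genes with a 3'UTR summit and in 48.2% of 17985 without (difference 4.31 points, 1.58 to 7.03). It began or ended within 5 kb, or overlapped, in 41.8% against 34.4% (7.36 points, 4.70 to 10.1). The closeness held within UTR length classes, where the difference ran from 5.56 to 17.8 points and its interval left out 0 in 4 of the 5, the exception being UTRs over 5 kb (-0.908 to 12.6). The tail-to-tail difference left out 0 in the class from 2 to 5 kb (7.50 points, 3.13 to 11.8) and not in the other 4, and it was -4.81 points (-12.7 to 3.30) in the class from 500 to 1000 bases. Other CTCF peaks were also near. With overlapping peaks counted once, the nearest other peak lay a median of 4088 bp away (3790 to 4389), against 4280 for coding summits (4050 to 4610), 5516 for intronic (5433 to 5594) and 6354 for intergenic ones (6230 to 6489). Promoter summits lay closer to another peak, at a median of 3752 bp (3631 to 3907).

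Gene lists were read against the background of 7.15%, with a median countable UTR of 986 bases over all eligible genes. Among genes whose messages are carried into dendrites, 9 of 31 had a 3'UTR summit (29.0%, 14.2 to 48.04; median UTR 2601 bases), among them Cfl1, Creb1, Ddn, Homer2, Kif5a, Nrgn, Ppp1r9b and Shank3. Ddn, the postsynaptic protein dendrin, had signals of 384 in replicate 1 and 426 in replicate 2. Kif5a, a kinesin motor of axonal and dendritic transport, had 374 and 420.1. Nrgn, the postsynaptic protein neurogranin, had 379 and 362. These were the 3 genes with the strongest summits on the list, whose 10 members had a median pooled signal of 194, against 209 over all 1502. Their motifs were on the strand of the gene, although that of Nrgn had 2 mismatches.

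Markers of pyramidal and granule cells held 6 of 24 (25%, 9.77 to 46.7; median UTR 1688 bases): C1ql2, Fibcd1, Mpped1, Pcp4, Prox1 and Rbfox3. Mpped1, a metallophosphoesterase gene of forebrain neurons, had 423 and 455, Rbfox3, which encodes the neuronal nuclear antigen NeuN, 319.5 and 343, and Fibcd1, a marker of CA1 pyramidal cells, 281 and 330.3. Activity-induced genes held 6 of 26 (23.1%, 8.97 to 43.6; median UTR 1211 bases): Dusp1, Egr3, Fosb, Fosl2, Gadd45g and Jun. Fosb, a Fos-family transcription factor, had 382 and 393, and Gadd45g, a stress-induced gene, had 225.9 and 232. Jun, the AP-1 partner of Fos proteins, had 178.5 and 173.1 at a summit without a motif at 2 mismatches. In these 3 lists the lower bound of the interval was above 7.15%. The intervals were not adjusted for the 21 lists read, and the lists were chosen with earlier results of these data known. UTR length moves with these shares, since 13.4% of genes with 2 to 5 kb of countable UTR and 8.01% of those with 1 to 2 kb had a summit, and its part was not tested.

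Other neuronal lists had intervals that included the background. Synaptic vesicle release genes held 6 of 36 (16.7%), glutamate receptor genes 4 of 25 (16%), potassium channel genes 4 of 37 (10.8%), GABA receptor genes 1 of 14 (7.14%) and interneuron markers 1 of 22 (4.55%). Doc2b, a calcium sensor of vesicle release, had signals of 427 and 441, and Syt7, a synaptotagmin, 362 and 375. Syn3, a synapsin, had 70.4 and 81.6, and the median pooled signal of the 8 members in vesicle release genes was 87.5. Grm2, the metabotropic glutamate receptor mGluR2, had a pair of summits, with 376 and 398 at the stronger one, 220 bases from the transcript end, and 87.8 and 78.0 at the weaker. Grik5, a kainate receptor subunit, had 243 and 269. Nos1, the neuronal nitric oxide synthase, was the interneuron gene, with 318 and 319. The M-current channel gene Kcnq3 had 143.0 and 158.8, and the GABA-A receptor gene Gabrb1 104.3 and 121.6, both without a motif at 2 mismatches.

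Among glial and vascular markers, a 3'UTR summit was found in 2 of 16 astrocyte markers (12.5%, 1.55 to 38.3; S100b and Gfap), 1 of 14 vascular markers (7.14%, 0.181 to 33.9; Acta2), 0 of 16 oligodendrocyte lineage markers, which allows up to 20.6%, and 0 of 17 microglia markers, which allows up to 19.5%. All 4 intervals included 7.15%. Microglia markers had short UTRs, with a median of 242 countable bases. S100b had 190.4 and 221 in the replicates, while Gfap, the astrocyte filament gene, had 46.3 and 37.3 and no summit in the list of either replicate alone. Among factors that act on 3'UTRs, genes of the microRNA pathway and 3'UTR-binding proteins held 5 of 37 (13.5%; Ago2, Celf1, Elavl1, Qk and Upf1) and cleavage and polyadenylation factors 3 of 22 (13.6%; Clp1, Pcf11 and Ppp1cb). Upf1, the helicase of nonsense-mediated decay, had 404 and 416, Celf1, an RNA-binding regulator of splicing and decay, 245 and 239, and Elavl1, the AU-rich element protein HuR, 61.5 and 69.2.

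Imprinted genes held 4 of 44 (9.09%), Hox genes 1 of 37 (Hoxb8, 100.6 and 78.7) and genes of cohesin and architectural factors 1 of 22 (Top2b, a topoisomerase found at loop bases, 373 and 383 at the stronger summit). Among imprinted genes, Slc22a3, an organic cation transporter, had 263 and 287, Ube3a, a ubiquitin ligase silenced on the paternal copy in neurons, 54.7 and 45.5, and H13, a signal peptide peptidase, 42.0 and 43.9. The lists do not separate the parental copies. Cytosolic ribosomal protein genes held 1 of 46 (2.17%; Rpl22, 413 and 445), with a median of 261 countable bases. Olfactory receptor genes held 18 of 1060 (1.70%, 1.01 to 2.67; median UTR 1562 bases), an interval below the background. Non-clustered protocadherins held 2 of 8 (Pcdh1 and Pcdh20). For the clustered protocadherins, neuronal adhesion genes that share their last exons, the count of 22 of 56 genes rested on 1 summit in the common last exon of the gamma cluster, with 164.7 and 217 in the replicates.

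**Figure D5:**
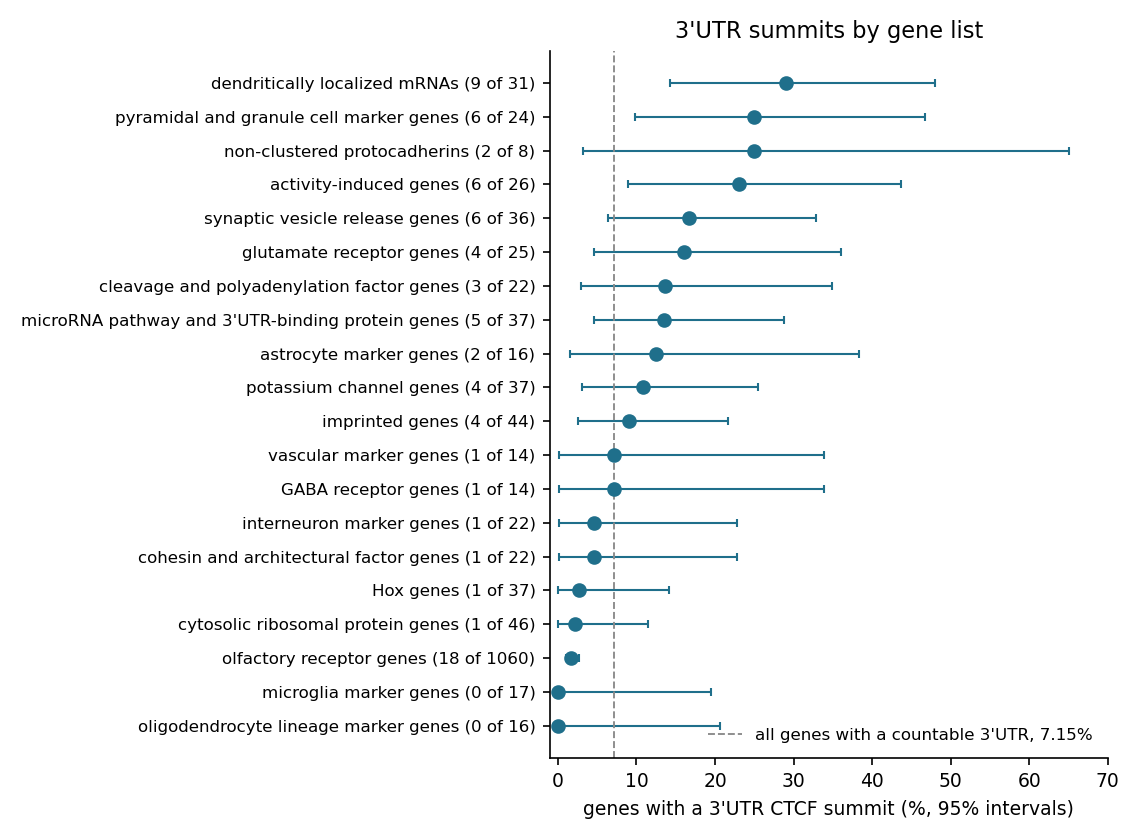
Percent of genes with a CTCF summit in the 3'UTR in 20 gene lists (points, 95% exact intervals, counts in parentheses), with a dashed line at the 7.15% of all genes with countable 3'UTR. The clustered protocadherins, whose count of 22 of 56 genes rests on 1 shared summit, are not drawn. Intervals are not adjusted for the number of lists. Dendritically localized messages, markers of pyramidal and granule cells and activity-induced genes lie above the line with their intervals, and olfactory receptor genes lie below it.

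The weakest members were in Vdr, the vitamin D receptor, with a pooled signal of 13.9, Nppa, which encodes atrial natriuretic peptide, with 13.5, and Nfib, a nuclear factor I gene, with 13.2. All 3 were weaker summits of overlapping sets. The replicate values were 75.4 and 92.7 for Vdr, 21.4 and 21.9 for Nppa, and 72.96 and 68.2 for Nfib. Those of Nppa and Nfib were identical to the values of a stronger member, so they cannot be read as signal of these weak summits alone. None of the 3 had a match at 2 mismatches or a summit in the list of either replicate alone.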

How the data were processed

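CTCF ChIP-seq peak lists of 4 libraries (2 biological replicates of 2 technical libraries) were used as deposited, on mm10 per the labels. Each replicate's technical libraries stand behind 1 common alignment. Read aligner, peak caller and control: not given in the sources used here. Peak signal, as deposited, is a score without a stated scale, and the deposited IDR score runs to 1000. The authors also give IDR as -log10, which entered no result. The main list was the between-replicate list at IDR 0.05, whose ranked form carries the signal of each replicate's peak. Summits were placed on GENCODE M21 basic transcripts and classed, in order, as promoter (within 1 kb of a TSS), coding, 3'UTR, 5'UTR, other exon, intron or intergenic. A 3'UTR includes its stop codon, and densities used bases other than N. Shares have 95% exact, densities exact Poisson and differences Newcombe intervals, which cover counting error only. Named genes are the 10 strongest members, the 5 genes with most summits (ties by strongest summit), up to 3 strongest per gene list, and the extremes of replicate ratio, stop distance, TSS distance, motif and signal. Members and lists were chosen with earlier results of these data known, and 15 genes are on more than 1 list. Classes, motif search and intervals were tested on simulated data. Alternatives were other peak lists, TSS distances, transcripts and motif settings. Python 3.11.15, scipy 1.17.1, statsmodels 0.14.6, pysam 0.24.0 and samtools 1.23.1 were used.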

Additional observations from a re-analysis of the deposited data

Results flagged for a closer look

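The X chromosome lies outside the rule, and 26 of its 2207 peaks (1.18%) had a summit in a 3'UTR by the same criteria, against 1.71% of autosomal peaks. That is 24.3 per Mb of countable 3'UTR (95% exact Poisson interval 15.9 to 35.6), with a median signal of 163.3. This estimate lay below the 39.9 to 64.7 per Mb of the 19 autosomes. Its interval overlapped those of chromosomes 10, 12, 13, 16 and 18. Chromosome 12 had a like share of its peaks in 3'UTRs, 45 of 3798 (1.18%). The mice were male, with a single X copy, and its part in the lower density was not tested.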

How the results depend on the processing

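No paired analysis was possible because each replicate's technical libraries stand behind 1 common alignment and the result is 1 list over both replicates. Of 98 recomputed values, 80 kept direction and side or stayed within the interval, 14 moved, 3 passed their threshold and 1 reversed. The reversed one is the motif share of 3'UTRs minus introns, 3.73 points with 0 mismatches against -5.97. The members with a motif were 13.2% at 0 and 74.8% at up to 2 mismatches, and 52.0% in the pooled-read list. The interval of the sense share left out 50% over 500 bp from a TSS (45.4%), with protein-coding transcripts (46.1%) and with motifs within 100 bp (46.2%). Density was 45.95 per Mb at IDR 0.01 and 41.2 in the pooled-read list, and genes with a summit were 6.49% and 5.87%. Over 5 kb from a TSS, members were 1.18% of peaks and genes with a summit 7.64%. With 1 replicate's list alone, density was 44.8 to 46.4 per Mb, genes 6.31% to 6.35%, motif share 48.4% to 50.5%, and the strand difference across the midpoint -15.2 to -15.0 points. Under all 11 alternatives that strand difference was -15.2 to -8.82 points with intervals below 0. None of the 11 set repeats apart. In the main list the strand difference was -32.6 points (-46.3 to -16.8) for soft-masked members. For the others it was -8.58 points, with an interval that came close to 0 (-17.0 to -0.00541). Summits within 5 kb of a TSS were found in 78.1% of genes with a 3'UTR summit, 17.9 points (15.5 to 20.1) more than in genes without. At 5 kb the 3'UTR summit itself can be counted as the promoter summit, which can raise this share and difference by construction. Within 500 bp, where it cannot, the share was 40.3% and the difference 9.02 points (6.39 to 11.7). Of 84 named members, 67 had a summit in the list of replicate 1, 67 in that of replicate 2, 61 in both and 58 in the pooled-read list. Weak peaks limit the data: 9.85% of members in the weakest signal class were in both replicate lists. The cause of these shifts was not tested.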
